A study of Mus musculus with 17 samples.

Results

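The genes described here are 10 members of the p53 pathway and of the families of Cdk inhibitors, chosen by name: Trp53, which encodes p53, its inhibitors Mdm2 and Mdm4, the Cdk inhibitor genes Cdkn2a, Cdkn1a, Cdkn1b and Cdkn2c, and the p53 target genes Ccng1, Sesn2 and Trp53inp1. Each gene was represented by the probe set with the highest mean among the probe sets annotated to that gene alone. By this rule 9 of the 10 genes had a value, among 18193 genes in all, and 20 probe sets were annotated to them. Trp53 had no such probe set in the annotation used, so its mRNA was not analysed here.

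The arrays came from 17 primary neuroblastomas of TH-MYCN mice, 1 array per tumor. All tumors form 1 group, with no non-transgenic tissue and no treatment among these arrays, so each gene is described over the tumors and no condition is compared. The mice were hemizygous for a human MYCN transgene driven by the rat tyrosine hydroxylase promoter, which is active in the sympathoadrenal lineage of the neural crest, and had been bred onto 1 inbred background. Every animal carried the transgene, and the labels give no age, sex or tumor weight for a single tumor. Nothing says which arrays were processed together, so batches could not be examined.

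The p53 protein is a transcription factor that is stabilized by DNA damage and oncogenic stress. Mdm2 is an E3 ubiquitin ligase that marks p53 for degradation, Mdm4 binds p53 and blocks its transactivation, and Mdm2 is itself a p53 target, which closes a feedback loop. The Arf product of Cdkn2a binds Mdm2 and releases p53, whereas the Ink4a product of the same locus inhibits Cdk4 and Cdk6. In neuroblastoma this axis is known for being mostly intact at diagnosis, and MYCN can raise both p53 and Mdm2. The mRNA level of p53 targets is a readout of p53 activity only in part, since most of them are also controlled by other factors.

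Values are log2 expression values, on which a difference of 1 is a doubling of the signal. Over the 17 arrays they ran between 3.28 and 15.59, the median probe set of an array lay between 6.28 and 6.51, and pairs of arrays correlated with r between 0.969 and 0.994. The tumor mad562 stood apart most, with a median r of 0.978 with the other arrays, against at least 0.984 for every other tumor. The defining genes of the sympathoadrenal lineage were present in the tumors, with 11 of 11 measured genes in the top quartile of all genes by mean. Skeletal muscle genes were high in mad549, mad550 and mad553, where their mean was 9.82, 10.67 and 12.19, against at most 6.80 in the other 14 tumors. Liver genes were high in mad562 and mad559, at 9.67 and 7.20, against at most 5.43 elsewhere. The tumors are bulk tissue, in which fewer cells of a type and less RNA per cell cannot be told apart.

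The promoters of the members were searched for the letters of known binding motifs. RefSeq (GRCm38.p6) gave 13 promoter windows for 9 of the 10 members, each from 250 bases before to 50 bases after a start site, and Trp53inp1 had none in the table. Both strands were searched for the p53 half-site, the 10-base unit that p53 binds as a closely spaced pair, and for the E-box CACGTG, a sequence bound by Myc proteins. Only exact matches were counted, so a half-site that differed by 1 letter, and any pair that includes one, was not seen. Among 32851 windows of all genes 8.36% held a half-site and 7.15% held CACGTG, so neither match is rare. Windows of Mdm2, Ccng1, Trp53 and Cdkn1a held a half-site, and CACGTG was found at Trp53 and at 1 of the start sites of Cdkn2c. Among the members only Cdkn1a had a pair of exact half-sites at most 13 bases apart, which 24 windows, or 0.0731% of all, had. That pair lay 73 and 51 bases before the upstream start site and was separated by 12 bases. The following stretches are shown because Cdkn1a, Ccng1 and Mdm2 are the classical p53 targets among the members, and capitals mark the exact half-sites only. Cdkn1a is read on the + strand at chr17:29090859-29090978, Ccng1 on the - strand at chr11:40755392-40755511, and Mdm2 on the - strand at chr10:117710865-117710984.
Cdkn1a: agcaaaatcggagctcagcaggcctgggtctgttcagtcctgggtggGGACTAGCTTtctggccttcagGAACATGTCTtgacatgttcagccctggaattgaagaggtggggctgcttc
Ccng1: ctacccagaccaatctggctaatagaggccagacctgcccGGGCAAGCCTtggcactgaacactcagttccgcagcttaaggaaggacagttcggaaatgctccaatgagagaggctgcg
Mdm2: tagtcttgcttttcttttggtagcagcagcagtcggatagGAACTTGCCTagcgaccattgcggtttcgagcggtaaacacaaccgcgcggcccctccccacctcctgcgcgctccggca
A match describes the letters in the window and is not evidence of binding in these tumors.

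On the probe sets used, the inhibitors of p53 had the smallest SDs of all measured members. Mdm2 had its lowest value, 10.32, in mad553, its median at 10.62 and its highest value, 10.90, in mad554, a range of 1.5-fold (mean 10.60 ± 0.15, SD, n = 17). After mad553, Mdm2 was lowest in mad550 (10.38), and both are tumors with high skeletal muscle genes, while mad549, the other such tumor, had 10.56. The second highest value, 10.84, was in mad563. Part of so small a spread was shared by whole arrays, because the median deviation of all genes from their means was lowest in mad553 (-0.07) and highest in mad554 (0.11). With each array centered on its median, mad553 was still lowest in Mdm2 (10.34) and mad563 was highest (10.83).

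Mdm4, the second inhibitor, ran between 9.68 in mad548 and 10.04 in mad561 with a median of 9.88 (mean 9.87 ± 0.10, SD, n = 17). Its SD was larger than that of only 1.85% of the genes within 0.5 log2 of its mean, against 26.7% for Mdm2. Neither inhibitor held a tumor that stood away from the rest. The second probe sets had larger SDs, 0.20 for Mdm2 and 0.18 for Mdm4. They did not follow the values used here, with r = -0.01 for Mdm2 and 0.09 for Mdm4 over the tumors. For 9010 genes with at least 2 probe sets this r had a median of 0.38 and an interquartile range of 0.11 to 0.64.

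Cdkn1a, which encodes the Cdk inhibitor p21 and is the best known p53 target, varied more. It was lowest in mad549 and mad556 (8.34 and 8.35), had a median of 9.35 and was highest in mad561, mad565 and mad554 (9.98, 9.95 and 9.93), a range of 3.11-fold (mean 9.28 ± 0.51, SD, n = 17). The values of mad549 and mad556 lay 0.48 below the next tumor, and the others were spread without a gap of that size. Among genes of like level 94.96% had a smaller SD. The second probe set of Cdkn1a varied along with the first (r = 0.73).

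Trp53inp1 encodes a stress-induced nuclear and autophagy protein that promotes p53 phosphorylation and is a p53 target itself. It too was lowest in mad549 and mad556 (7.97 and 8.06), had a median of 8.78 and reached 9.69 in mad562, a range of 3.27-fold (mean 8.77 ± 0.44, SD, n = 17). The next tumors after mad562 were mad563 and mad554, both at 9.14. Of genes of like level 90.0% had a smaller SD. Its second probe set had a mean of only 4.73 and did not follow the first (r = 0.06).

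Ccng1 encodes cyclin G1, a p53 target that recruits phosphatase 2A to Mdm2. It ran between 10.42 in mad558 and 11.48 in mad562, with mad552 next at 11.35 and a median of 10.78 (mean 10.85 ± 0.29, SD, n = 17). Of genes of like level 89.0% had a smaller SD, and the other probe sets of Ccng1 followed the one used with r = 0.92 and 0.70.

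Sesn2 encodes sestrin 2, a leucine sensor upstream of mTORC1 that p53 and the integrated stress response induce. Its values lay between 6.64 in mad558 and 7.39 in mad559 with a median of 7.12 (mean 7.10 ± 0.20, SD, n = 17). The tumor mad558 was thus lowest in both Ccng1 and Sesn2. Only 28.6% of genes of like level had a smaller SD than Sesn2, and its second probe set followed the first with r = 0.32.

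**Figure D1:**
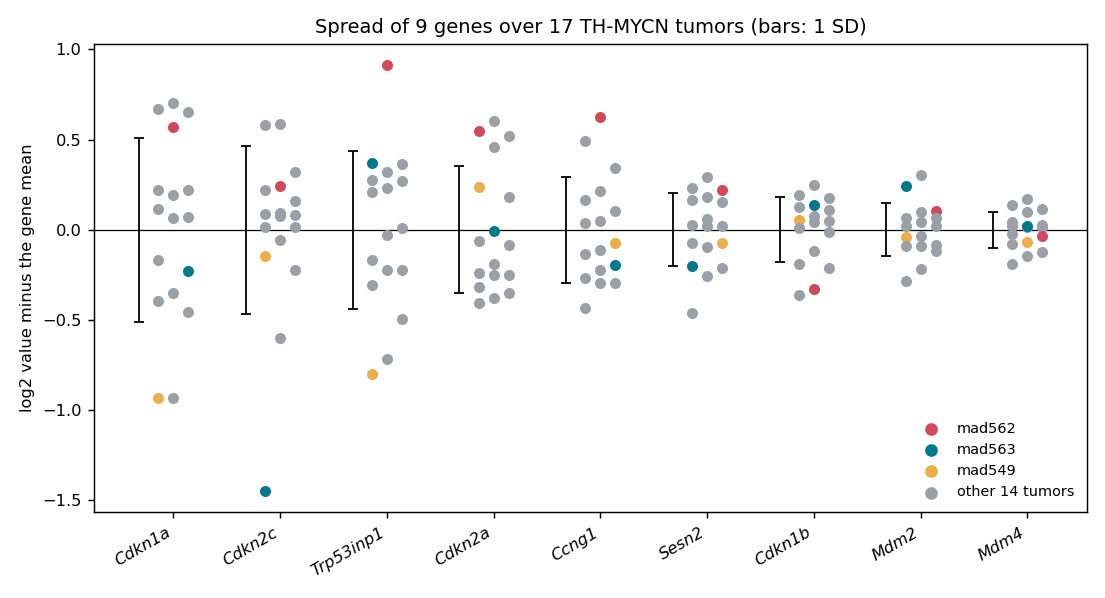
Log2 value of each of the 9 measured genes in each of the 17 tumors, as the difference from the mean of that gene. Genes are ordered by SD and black bars show 1 SD on either side of the mean. The spread is largest for Cdkn1a (SD 0.51) and smallest for Mdm4 (SD 0.10), and the lowest point is Cdkn2c in mad563.

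The Cdk inhibitors besides Cdkn1a differed in how much they varied. Cdkn1b encodes p27, which inhibits cyclin E-Cdk2 and is degraded through Skp2. It ran between 8.39 in mad552 and 8.997 in mad554, with mad562 second lowest at 8.42 and a median of 8.80 (mean 8.75 ± 0.18, SD, n = 17), and 27.7% of genes of like level had a smaller SD. With the arrays centered the lowest tumor was mad562 (8.39) and the highest was mad560 (8.96). The second probe set of Cdkn1b, of mean 5.12, ran against the first (r = -0.34).

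Cdkn2a had a signal as low as that of olfactory receptor genes, which serve here as a mark of low signal. Its mean was 4.65 ± 0.35 (SD, n = 17), and the means of 39 olfactory receptor genes had a median of 4.62 and a 95th percentile of 5.65. The spread of Cdkn2a was nevertheless larger than that of 97.4% of these olfactory receptor genes. Its highest values were 5.25 in mad564, 5.20 in mad562, 5.17 in mad552 and 5.11 in mad554, against 4.24 to 4.89 in the other tumors, with a median of 4.56 over all 17. Whether this single probe set reads Ink4a, Arf or both was not determined here, and the 2 start sites of the gene lie 12427 bases apart.

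Cdkn2c encodes p18, an Ink4 protein that inhibits Cdk4 and Cdk6, and is measured by 1 probe set. In mad563 it was 7.94, against 8.79 in mad561 and 9.17 to 9.98 in the other 15 tumors. The value in mad563 was 1.80-fold below that of mad561 and 2.90-fold below the median of the other tumors. Without mad563 the SD of Cdkn2c was 0.29 (n = 16), against 0.47 with all 17 tumors. In mad563, 18 of 18193 genes lay below all other tumors by a larger gap than Cdkn2c. None of the 10 measured neighbors on chromosome 4, from Osbpl9 to Bend5, was lowest in mad563, and Faf1, the nearest neighbor on one side, was at 11.63 there, against a median of 11.41 in the other tumors. The neighbors 4930522H14Rik and Agbl4 had signals within the range of the olfactory receptor genes, with medians of 4.64 and 4.86 in the other tumors. The share of all genes that were lowest in mad563 was not counted. The neighbors were examined after the value of Cdkn2c in mad563 had been seen, and the cause of that value was not tested. Chromosome 4 carries Cdkn2a, Cdkn2c, Sesn2 and Trp53inp1. Its protein-coding genes at or above the median level had medians between -0.01 and 0.02 relative to all such genes in every tumor.

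Members were then set against each other over the tumors, to find which of them varied together. No pair of the 36 was called by limma with an adjusted p under 0.05 in the fits of both genes, while 4 pairs had a permutation p under 0.05 for r and 3 for rho. In these fits the log2 value of 1 member was the covariate and p-values were adjusted over all other genes. Of the 18192 genes tested against each member, 0% were called for Mdm2, Mdm4, Cdkn2a, Cdkn1a and Cdkn2c, 0.0055% for Ccng1, and 0.011% for each of Cdkn1b, Sesn2 and Trp53inp1, and between 477 and 2538 genes had an unadjusted p under 0.05.

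The closest pair was Cdkn1a and Trp53inp1, both low in mad549 and mad556 and both high in mad562 and mad554. Their r was 0.82 and rho 0.72 (permutation p = 5e-05 and 0.00156, 100000 permutations, two-sided), with limma adjusted p of 0.0764 in the fit of Cdkn1a and 0.0944 in that of Trp53inp1. Without mad549 and mad556, the tumors farthest from the median of Cdkn1a, r was 0.67. The pair passed the threshold when only genes at or above the median level were tested. With the arrays centered r was 0.80.

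Ccng1 and Sesn2 followed with r = 0.59 and rho = 0.62 (permutation p = 0.012 and 0.0101, limma adjusted p of 0.33 in both fits), and r was 0.63 without mad562 and mad552. Ccng1 and Cdkn2a also had r = 0.59, but rho was 0.40 (permutation p = 0.0128 and 0.114) and r without mad564 and mad562 was 0.36, so this relation rested on those tumors. Ccng1 and Trp53inp1 had r = 0.48 and rho = 0.41 (permutation p = 0.0491 and 0.0999).

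For Mdm2, itself a p53 target, r was 0.32 with Cdkn1a, 0.07 with Ccng1 and -0.11 with Sesn2 (permutation p = 0.207, 0.781 and 0.678). With Trp53inp1, Mdm2 had r = 0.45 and rho = 0.60 (permutation p = 0.0724 and 0.0127). Between Mdm2 and Cdkn2c r was -0.46 and rho -0.34 (permutation p = 0.0716 and 0.177). Without mad553 and mad554, which were chosen by their Mdm2 values, r was -0.73. This still included mad563, the lowest tumor in Cdkn2c and the second highest in Mdm2. Over all 36 pairs 24 had a positive r and the median was 0.14.

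**Figure D2:**
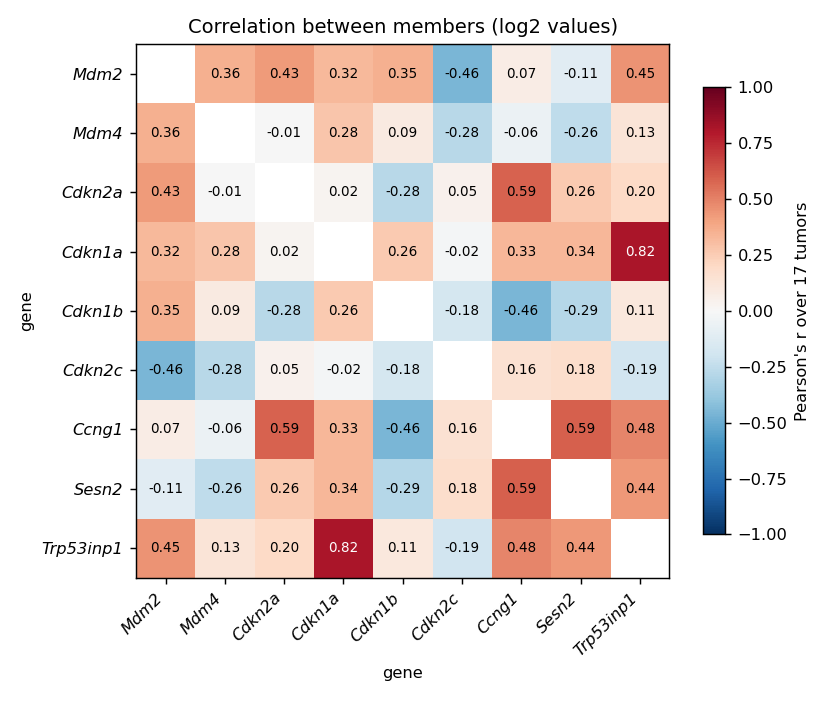
Pearson's r over 17 tumors for every pair of the 9 measured genes, from log2 values. The highest r is 0.82, between Cdkn1a and Trp53inp1, and the row of Mdm4 holds no r beyond 0.36 in size.

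Other p53 target genes were taken from a list of 30, of which 28 were measured. Among them 1 was called, Eda2r with Ccng1, and 0 were called with any other member. Eda2r encodes a receptor of the TNF receptor family on chromosome X that p53 induces. It ran between 5.48 in mad558 and 7.62 in mad562 with a median of 6.37 (mean 6.30 ± 0.62, SD, n = 17), the same lowest and highest tumors as Ccng1, and mad552 was second highest in both. Its r with Ccng1 was 0.87 and rho 0.87 (permutation p = 2e-05 and 5e-05, limma adjusted p = 0.0146), and r was 0.77 without mad562 and mad552. Eda2r was the only gene of 18192 called with Ccng1. Without mad562 the limma adjusted p was 0.48 at r = 0.81, and it was 0.056, 0.087 and 0.055 without mad556, mad558 and mad561, so the call, but not the direction, depended on each of these tumors.

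Further targets did not pass the threshold, and their values are given as such. Btg2, an antiproliferative target, had r = 0.71 with Cdkn1a (limma adjusted p = 0.11) and 0.75 with Trp53inp1 (0.12), and Ninj1, which encodes ninjurin 1, had 0.73 (0.098) and 0.55 (0.31). Xpc, which encodes a damage sensor of nucleotide excision repair and is a p53 target, had r of the opposite sign, at -0.70 with Cdkn1a (0.12). With Ccng1, Phlda3, a repressor of Akt, had r = 0.67 (0.25) and the nuclease gene Aen had 0.66 (0.28). With Mdm2, Apaf1, the core of the apoptosome, had r = 0.76 (0.21). These targets were named after their values had been seen.

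Counted over the list, 4 of 28 targets had an unadjusted limma p under 0.05 with Cdkn1a, where 2149 of all 18192 genes had, and 6 of 28 had with Mdm2, where 2165 of all genes had. The median r of the list was 0.14 with Cdkn1a and 0.16 with Mdm2, against 0.02 and 0.16 over all genes. With Trp53inp1 the median was 0.27 and 21 of 28 were positive, against 0.06 over all genes, of which 57.7% were positive. With Ccng1 it was 0.17, against 0.01.

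**Figure D3:**
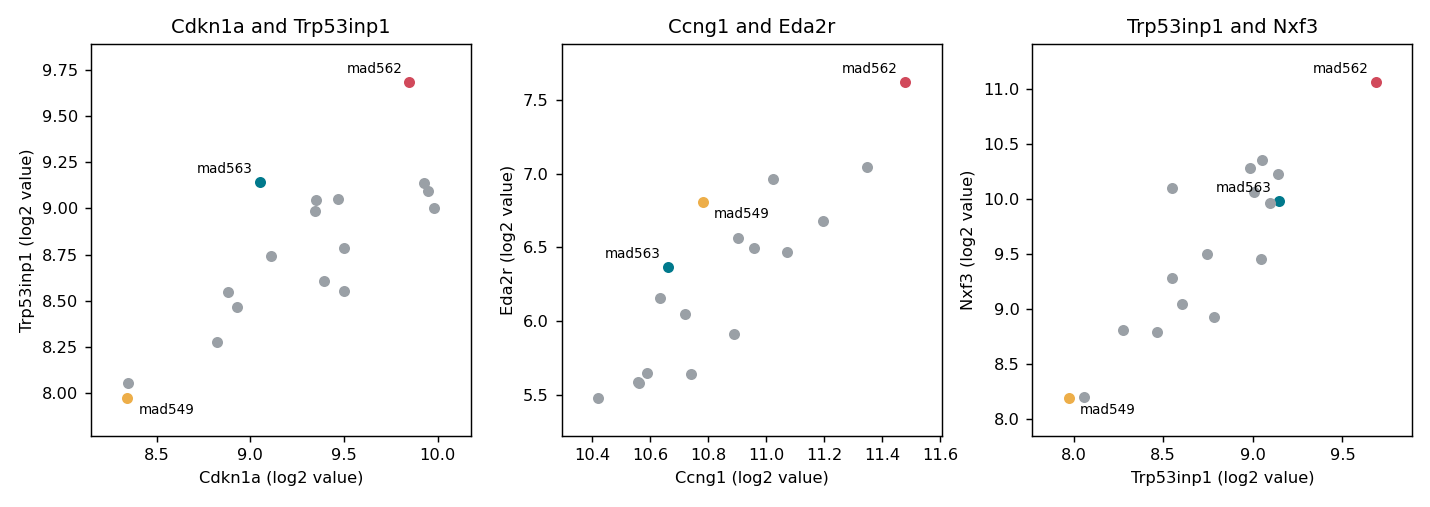
Log2 values of 3 pairs of genes, with 1 point per tumor (n = 17) and 3 tumors marked. Both axes are log2 expression values. The r is 0.82 for Cdkn1a and Trp53inp1, 0.87 for Ccng1 and Eda2r and 0.90 for Trp53inp1 and Nxf3, and mad562 is at or near the upper end of each plot.

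The remaining lists hold the genes that restrain or activate p53, its relatives, further Cdk inhibitors, regulators of p27, and the kinases and cyclins that the inhibitors act on. None of their genes was called with any measured member. The median r of the 9 measured genes that activate p53 was -0.43 with Trp53inp1, against 0.06 over all genes, and 1 was positive. It was -0.39 with Cdkn1a, against 0.02, and -0.20 with Ccng1, against 0.01, with 2 and 0 positive. With Cdkn2c it was 0.20, against -0.03, with 8 positive. The 8 genes that restrain p53 had a median of -0.28 with Cdkn1a, with 0 positive. These medians were picked after being seen and were not tested. The SDs of the 9 measured genes that activate p53 ran from 0.08 to 0.28, with a median of 0.15. Rpl11, a ribosomal protein that binds Mdm2, had a mean of 13.80 ± 0.08, and Trp53bp1 had 12.86 ± 0.16 (SD, n = 17 each). Kat5 (8.79 ± 0.14) and Atr (8.99 ± 0.14) had the lowest means of that list, though signals of different probe sets are not on 1 scale.

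Among the genes that restrain p53, Usp7, the deubiquitinase of Mdm2, and Bmi1, a repressor of the Cdkn2a locus, had means of 12.31 ± 0.11 and 12.31 ± 0.14, and Twist1 (4.50 ± 0.14) and Cbx7 (6.13 ± 0.26) had the lowest (SD, n = 17 each). Tbx2, a second repressor of that locus, varied more, between 7.65 in mad553 and 9.75 in mad558. The p53 relatives Trp63 and Trp73 had means of 5.41 ± 0.15 and 4.79 ± 0.17, within the range of the olfactory receptor genes. At the ends of the p53 target list were Zmat3 (10.94 ± 0.31) and Ei24 (10.83 ± 0.12), and Pmaip1 (4.45 ± 0.34) and Sfn (4.78 ± 0.15), the last 2 within the range of the olfactory receptor genes.

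Of the Cdk inhibitors outside the members, Cdkn1c, which encodes p57, varied most, between 7.25 in mad548 and 10.10 in mad563, a range of 7.20-fold with a median of 8.52 (mean 8.60 ± 0.73, SD, n = 17). The tumor lowest in Cdkn2c was therefore the highest in Cdkn1c. Cdkn2d had a mean of 9.12 ± 0.18, Cdkn3 of 7.63 ± 0.31 and Cdkn2b, the neighbor of Cdkn2a, of 5.65 ± 0.22. On the kinase side Cdk4 (12.97 ± 0.18) and Ccnd1 (12.29 ± 0.30) had the highest means and Cdk2 (7.78 ± 0.25) and Cdk6 (7.09 ± 0.75) the lowest. Cdk6 ran between 6.24 in mad556 and 9.24 in mad562, the tumor with the next value being mad550 at 8.09. Among the regulators of p27, Cks1b (13.69 ± 0.13) and Cul1 (11.66 ± 0.11), parts of the ligase that degrades it, had the highest means, and Foxo4 (6.89 ± 0.24) and Foxo1 (7.76 ± 0.28) the lowest.

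The genes whose pattern was most like that of each member were taken over 17 tumors by Pearson's r, among genes at or above the median level. For Trp53inp1 these were Nxf3, a relative of the mRNA export factors, Crebrf, a regulator of CREB3, and the myosin light chain gene Myl12b. Nxf3 ran between 8.19 in mad549 and 11.07 in mad562, the same extremes as Trp53inp1, with r = 0.90 and rho = 0.78 (permutation p = 1e-05, the smallest these permutations can give, and 0.00027, limma adjusted p = 0.00185). Crebrf had r = 0.87 (limma adjusted p = 0.0116) and Myl12b 0.82 (0.0944). Nxf3 was called in all 17 fits that left out 1 tumor, with limma adjusted p up to 0.0397, but not when all probe sets were averaged (0.093) or ranks were used (0.43). Crebrf passed in only 4 of 9 alternatives other than leaving out single tumors. Its misses included the same 2 settings (0.33 and 0.43), and it also missed without mad549, mad556, mad558 or mad562 (0.051 to 0.17).

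For Cdkn1b the nearest were Lingo1, a coreceptor of neurons (r = 0.88), Napb, a SNARE cofactor of the synapse (r = 0.88, both with limma adjusted p = 0.0197), and the chemokine gene Ccl27a (0.85, adjusted p = 0.13). In mad552 and mad562, the tumors lowest in Cdkn1b, Napb was 8.77 and 8.70, its 2 lowest values. Lingo1 was 7.97 and 8.35 in these tumors, against 9.06 in mad548, its highest. Both calls were lost without mad552, mad554 or mad560 (limma adjusted p from 0.056 to 0.098), that of Napb also without mad562 (0.076), and both when the arrays were centered (0.11), with ranks (0.17) and without mad549, mad550 and mad553 (0.10). When all probe sets of a gene were averaged, r was 0.03 with Lingo1 and 0.37 with Napb (limma adjusted p = 0.98 and 0.74). Over all alternatives other than leaving out single tumors, Lingo1 passed in 4 of 9 and Napb in 2 of 9.

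For Cdkn1a the nearest genes were Stat3, a transcription factor of cytokine signaling (r = 0.84, limma adjusted p = 0.0764), the proton pump subunit Atp6v1f (0.83, 0.12) and Kdelr1, a retrieval receptor of the endoplasmic reticulum (0.82, 0.0764). Stat3 was lowest in mad558 (8.11) and mad549 (8.38) and highest in mad554 (9.69). For Mdm2 they were Ralgapa1 (0.88, 0.12), the ESCRT-I gene Mvb12a (0.84, 0.18) and Sars, a tRNA synthetase (0.83, 0.18). None of these was called, and the 9 fits share the same 17 arrays.

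For Ccng1 the nearest were Map3k3 (0.85, adjusted p = 0.14), Tns3 (0.78, 0.22) and Icmt (0.77, 0.22). For Sesn2 they were Plekhm1 (0.80, 0.19), Man1c1 (0.80, 0.13) and Aff1 (0.79, 0.17). At lower signal, Sesn2 also had 2 called genes, Smim10l2a (r = -0.89, limma adjusted p = 0.0157) and Tmem119 (r = 0.86, 0.0267), which the rule for nearest genes leaves out. The call of Smim10l2a was lost without mad553, mad558 or mad559 and that of Tmem119 without any of these or mad556, mad564 or mad565 (limma adjusted p from 0.0503 to 0.13). Both were also lost when all probe sets were averaged, at r = -0.56 and 0.52 (0.37 and 0.39), with ranks (0.43 each) and without mad549, mad550 and mad553 (0.21 and 0.27). Over all alternatives other than leaving out single tumors, Smim10l2a passed in 4 of 8 and Tmem119 in 3 of 8. For Cdkn2c the nearest were Ccne2, which encodes cyclin E2, Rpe and Tmem68, each with r = 0.79 (limma adjusted p from 0.26 to 0.29). Without mad563 and mad561 these fell to 0.34, 0.17 and 0.60, so the first 2 rested on those tumors. For Mdm4 (Zfp574, R3hdm2 and Rgs9, r from 0.70 to 0.74) and Cdkn2a (Snx25, Rpp25l and Ncoa1, r from 0.69 to 0.76) no adjusted p was below 0.99.

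Finally the members were set against the mean level of 19 lists of cell type markers and cell programs, to show which other signals moved with them. Of 171 relations 2 were called by limma and 27 had an unadjusted p under 0.05, and by permutation 25 had. The fits of the lists called between 0% and 4.98% of all genes. In the same fits between 812 and 4026 genes had an unadjusted p under 0.05, of 18180 to 18190 tested. Both calls concerned Cdkn1a. With the list of immediate early genes, such as Fos and Egr1, r was 0.77 and rho 0.85 (permutation p = 0.00024 and 3e-05, limma adjusted p = 0.0494), where 0.176% of genes were called in the fit of that list. The mean of the list ran between 7.70 in mad558 and 9.27 in mad565, and r was 0.75 without mad565 and mad562. Its genes of highest signal were Dusp1 (mean 11.13 ± 0.29, SD, n = 17) and Jun (10.37 ± 0.29).

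With the macrophage list r of Cdkn1a was 0.65 and rho 0.72 (permutation p = 0.00494 and 0.00169, limma adjusted p = 0.0435), in a fit that called 4.98% of all genes. All 12 macrophage genes were measured, and their mean ran between 8.77 in mad558 and 10.66 in mad562. Lyz2, with values between 11.52 and 12.98, and Csf1r, between 10.40 and 12.78, had the highest means. Cdkn1a was at 9.85 in mad562, 9.40 in mad550 and 9.95 in mad565, the 3 tumors highest in the list, and at 8.82 in mad558, the lowest. Sesn2, Trp53inp1 and Ccng1 had r of 0.66, 0.62 and 0.60 with the list and did not pass (limma adjusted p = 0.067, 0.069 and 0.11), while Mdm2 had r = -0.10. The part of macrophage RNA in the values of these genes was not tested.

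Without mad562 both calls of Cdkn1a missed the threshold, at limma adjusted p = 0.068 and r = 0.75 for immediate early genes and 0.12 and r = 0.62 for macrophage genes. When each tumor was left out in turn, the immediate early relation missed it in 14 of 17 fits, all but those without mad548, mad556 or mad564. The macrophage relation missed it in 11 of 17, all but those without mad548, mad550, mad554, mad560, mad561 or mad564. In these fits r lay between 0.61 and 0.81, and the limma adjusted p reached 0.092 and 0.12. No member was called with proliferation, MYC targets, sympathoadrenal genes or hypoxia genes, and the relations with the largest r among these are given with their values. The hypoxia list had r = 0.62 and rho = 0.72 with Cdkn1b (permutation p = 0.00833 and 0.00172, limma adjusted p = 0.28), and r = 0.60 and rho = 0.59 with Mdm2 (permutation p = 0.0106 and 0.0149, limma adjusted p = 0.34). Without mad554 and mad561 these r were 0.55 and 0.40. The sympathoadrenal list had r = 0.61 and rho = 0.62 with Cdkn1b (permutation p = 0.00999 and 0.00974, limma adjusted p = 0.25), and r was 0.45 without mad560 and mad554. Cdkn1b and Mdm2 also had r of 0.62 and 0.52 with the median deviation of all genes in each array, which was highest in mad554. The part of this shift in the relations of Cdkn1b and Mdm2 with these lists was not tested. The proliferation list had r = -0.48 and rho = -0.52 with Cdkn1a (permutation p = 0.0531 and 0.035, limma adjusted p = 0.35).

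Over all tumors the skeletal muscle list had r = -0.67 and rho = -0.71 with Mdm2 (permutation p = 0.00382 and 0.0019, limma adjusted p = 0.67). Without mad553 and mad550 this r was -0.28. Because mad549, mad550 and mad553 stand apart, the list was also set against Mdm2 among the 14 tumors in which it was low. There r was -0.49 and rho -0.55 (permutation p = 0.0769 and 0.0429), a test added after the data had been seen. The part of muscle RNA in the low Mdm2 values of mad553 and mad550 was not tested. The liver list had r = 0.54 and rho = 0.62 with Trp53inp1 (permutation p = 0.0351 and 0.00911, limma adjusted p = 0.28). Without mad562 and mad559, the tumors high in liver genes, this r was 0.61. The same step moved r with the liver list from 0.15 to 0.58 for Mdm2, from -0.47 to 0.44 for Cdkn1b and from 0.13 to -0.43 for Cdkn2c.

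**Figure D4:**
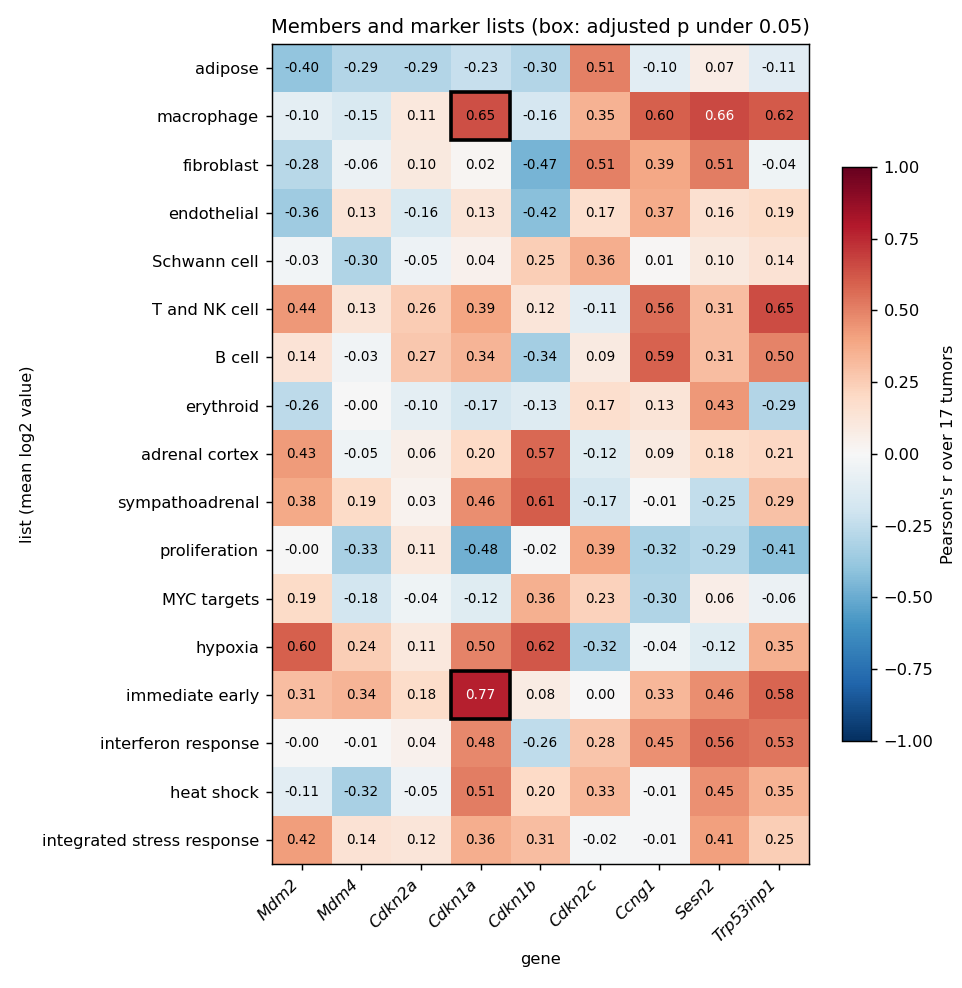
Pearson's r over 17 tumors between each of the 9 measured genes and the mean log2 value of marker lists. Boxes mark the 2 relations with a limma adjusted p under 0.05, both of Cdkn1a, with immediate early genes (0.77) and macrophage genes (0.65). Skeletal muscle and liver are left out because a few tumors stand apart in them.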

How the data were processed

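RNA of 17 TH-MYCN tumors was hybridized to whole-genome mouse arrays of Affymetrix. The deposited values are log2 expression values per probe set. Per the labels the authors used RMA (background correction, quantile normalization and a summary per probe set) and Partek 6.4; the methods of the study name MAS5, and the values were used as deposited. Quantile normalization sets the arrays to a common distribution, so a shift of most genes in 1 tumor would be reduced. Raw intensities were not analysed here, and no batch is given.

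Of 45101 probe sets 64 were controls, 34945 had 1 gene symbol, 932 had several and 9160 had none in the platform annotation. Each of 18193 genes took the single-gene probe set of highest mean. Linear models were fitted to all genes with limma 3.58.1 in R 4.3.3 (lmFit, eBayes), with the log2 value of a member (9 fits) or the mean of a marker list (19 fits) as covariate. P-values were adjusted by Benjamini-Hochberg over all other genes of the fit, with a threshold of 0.05, and a pair of members was called when it passed in both fits. Pearson's r and Spearman's rho were tested with 100000 permutations of the tumors (two-sided, seed 1), and r was repeated after dropping the 2 tumors whose first measure lay farthest from its median. Genes of like level are those within 0.5 log2 of the mean of a gene. The fits were tested on simulated data. Promoters and chromosomes came from RefSeq (GRCm38.p6). Python 3.11.15, NumPy 2.4.6, pandas 2.3.3 and Matplotlib 3.10.9 were used.

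The members and lists were chosen with earlier results of these data known. Genes are named by this rule: all members, for each member the 3 genes of highest r among genes at or above the median level, the 2 highest and 2 lowest means of each pathway list, list genes called with Mdm2 or Cdkn1a, and the 2 highest genes of a marker list with which a member was called. Other genes were named after their values had been seen. The study counts as many mice as tumors, while the labels name no animal for a tumor. Alternatives covered the choice of probe sets, centering, a filter on dim genes, ranks, removal of the first principal component, a joint adjustment and the removal of tumors. The number of arrays limits the precision.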

Additional observations from a re-analysis of the deposited data

How the results depend on the processing

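No paired analysis was possible because all arrays belong to a single group of unpaired tumors. The fit planned with Trp53 as covariate was not run, since that gene has no value here. Leaving out mad549, mad550 and mad553, or mad562, had been chosen with earlier results known. None of the called relations changed its sign in an alternative, and no gene of the p53 target list was called with Mdm2 or Cdkn1a in any.

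The number of list genes called with a member was 1, namely Eda2r with Ccng1, and became 0 when all probe sets were averaged, with arrays centered, with genes at or above the median level only, with ranks, without mad562 and with the first principal component removed, and 0 to 1 when single tumors were left out. Eda2r itself lies below the median level, so that filter drops it. The number of member pairs called was 0 and became 1, Cdkn1a with Trp53inp1, with genes at or above the median level only, and stayed at 0 when single tumors were left out. The number of relations called between members and marker lists was 2, both of Cdkn1a. It became 1 with centered arrays and with a joint adjustment, in both cases Cdkn1a with immediate early genes. Without mad549, mad550 and mad553 it was 1 as well, but this was Trp53inp1 with macrophage genes (limma adjusted p = 0.034), while Cdkn1a missed the threshold with macrophage (0.066) and immediate early genes (0.096). With all probe sets averaged the number stayed at 2, but Ccng1 with B cell genes (0.030) took the place of Cdkn1a with immediate early genes (r = 0.70, adjusted p = 0.10). It was 0 with ranks, without mad562 and without the first component, and 0 to 3 when single tumors were left out. Otherwise the cause of these changes was not tested.

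Averaging all probe sets moved the mean levels to 8.01 for Mdm2, 6.75 for Mdm4, 8.18 for Cdkn1a, 6.93 for Cdkn1b, 8.77 for Ccng1 and 6.75 for Trp53inp1, because dimmer probe sets enter, and Mdm4 was at 5.98 without probe sets of shared sequence. Over all alternatives other than leaving out single tumors, Trp53inp1 with Nxf3 had r from 0.78 to 0.90 and passed in 7 of 9, and Ccng1 with Eda2r had 0.79 to 0.91 and passed in 3 of 8. Low signal limits what can be read from Cdkn2a. Relations of Mdm2, Mdm4, Cdkn1b and Trp53inp1 rest on their brightest probe set, which the second did not follow.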

Other observations

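The tumor mad563 differed from the others in more of this pathway than Cdkn2c. Zmat3, a p53 target on chromosome 3 that encodes an RNA-binding zinc finger protein, was 11.73 in mad563, against 10.38 to 11.22 in the other tumors. In mad563 the median deviation of 437 genes of chromosome 3 was 0.35 above that of all genes counted. Only protein-coding genes at or above the median level were counted, and no other autosome exceeded 0.07 in any tumor. Mtap, which lies next to Cdkn2a on chromosome 4, was 10.97 in mad563, against 11.46 to 12.02 in the others, whereas Cdkn2b, on the other side of Cdkn2a, was 5.84 there, within its range of 5.30 to 6.15. Plk2, a p53 target and Polo-like kinase, was 10.07 in mad563, against at most 9.31 elsewhere.

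The protein-coding genes of chromosome 10 at or above the median level had their lowest median in mad550, at -0.11 relative to all such genes. This chromosome carries Mdm2, which was second lowest in that tumor. It also carries the listed target Dram1, which was second highest there, at 8.78. In mad562, the tumor least like the others, Dram1, a p53 target of autophagy, was 9.74, against at most 8.78 elsewhere, and Pmaip1, which encodes Noxa, was 5.52, against at most 4.85. Gadd45a, a p53 target of the damage response, ran between 4.94 in mad558 and 7.44 in mad548, a range of 5.68-fold. The tumor mad558 was lowest in Ccng1 and Sesn2 and in 6 of the 28 listed targets (Eda2r, Aen, Btg2, Plk3, Gadd45a and Ninj1), and highest in 1, Rprm. The share of all genes that were lowest in mad558 was not counted. Over the whole list mad558 was below the median of the gene for 14 targets and above it for 14. It was also the lowest tumor in the macrophage and immediate early lists and the highest in Cdkn2c. These genes and tumors were picked after their values had been seen, so the values are a description with no test, and no cause was tested.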
